A study of Mus musculus with 8 samples.

Results

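The miR-34 family comprises the products of 3 mouse microRNA (miRNA) genes, Mir34a, Mir34b and Mir34c, and each gene gives a 5p and a 3p strand, so that the family has 6 mature miRNAs. All 6 (mmu-miR-34a-5p, mmu-miR-34a-3p, mmu-miR-34b-5p, mmu-miR-34b-3p, mmu-miR-34c-5p and mmu-miR-34c-3p, written here without the prefix for mouse) were taken by name from the deposited small RNA table, in which they are 6 of 1624 mature miRNA names. The table covers mesenchymal stromal cells (MSCs) of 2 tissues, with 4 libraries of pancreas cells (pMSCs, libraries 5, 6, 7 and 8) and 4 of cells from inguinal white adipose tissue (iwatMSCs, libraries 13, 14, 15 and 16). All cells came from male C57BL/6J mice, 8 weeks old and on a standard diet, and both tissues were taken from the same animals. The cells were sorted as CD45-:CD31-:SCA1+, cells of 3 to 5 mice were pooled, and the pools were grown for 4 days without treatment before RNA was taken. The question was how the cells of the 2 tissues differ in their miRNAs.

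A miRNA is cut from a hairpin precursor, loaded into an Argonaute protein and guides it to messenger RNAs that pair with its seed, the bases near its 5′ end, after which the messenger RNA is repressed. The miR-34 genes are direct transcriptional targets of the tumour suppressor p53, and their products repress genes of the cell cycle and of survival such as Cdk6, Ccnd1, Met, Bcl2 and Sirt1. Mir34a is expressed in most tissues, whereas Mir34b and Mir34c are made from 1 shared transcript that is best known from testis, lung and the multiciliated cells of airway and oviduct. Neither p53 nor any messenger RNA was measured in the table used here.

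The sequences below are given because the seed divides the family into groups that do not follow the 3 genes. They are RefSeq's mature forms in GRCm38.p6, written 5′ to 3′, with the seed (bases 2 to 8) in capitals. RefSeq's table matched 5 of the 6 members and the seed relative miR-449a-5p, and miR-34c-5p is given by name.
miR-34a-5p: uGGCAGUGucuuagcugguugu
miR-34b-5p: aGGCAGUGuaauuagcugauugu
miR-449a-5p: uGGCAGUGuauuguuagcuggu
miR-34b-3p: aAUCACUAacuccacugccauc
miR-34c-3p: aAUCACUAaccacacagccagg
miR-34a-3p: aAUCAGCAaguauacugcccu
miR-34a-5p and miR-34b-5p shared the seed GGCAGUG with miR-449a-5p, a member of the related miR-449 family, and 4 of the 1679 mature names in RefSeq's table carried it. This count could not include miR-34c-5p, which that table lacked, so the seed of miR-34c-5p was not compared here. The 3p strands of Mir34b and Mir34c shared the seed AUCACUA, which no other of the 1679 names carried. The seed of miR-34a-3p, AUCAGCA, was found in 1 name, its own. Position by position from the 5′ end and without gaps, miR-34b-3p and miR-34c-3p were identical at 17 of 22 bases. On the same count miR-34a-5p and miR-449a-5p were identical at 15 of 22, and miR-34a-5p and miR-34b-5p at 11 of 22. miR-34b-5p has 23 bases against 22 in miR-34a-5p, and past the seed their bases fall out of register. The 11 of 22 therefore understates how alike these 2 are and does not rank them against miR-449a-5p.

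Mir34a lies at chr4:150068454-150068555 on the plus strand, and its mature strands are miR-34a-5p at chr4:150068473-150068494 and miR-34a-3p at chr4:150068517-150068537. Mir34b and Mir34c are neighbours on the minus strand of chromosome 9, Mir34b at chr9:51103562-51103645 and Mir34c at chr9:51103034-51103110, with 451 bases between them. miR-34b-5p is at chr9:51103610-51103632, miR-34b-3p at chr9:51103574-51103595 and miR-34c-3p at chr9:51103044-51103065. The hairpins of Mir34a and Mir34b follow, with both mature strands in capitals, because the table also counts reads under the type hairpin, which are described further on.
Mir34a: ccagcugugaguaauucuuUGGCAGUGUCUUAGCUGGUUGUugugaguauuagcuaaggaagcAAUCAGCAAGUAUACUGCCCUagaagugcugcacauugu
Mir34b: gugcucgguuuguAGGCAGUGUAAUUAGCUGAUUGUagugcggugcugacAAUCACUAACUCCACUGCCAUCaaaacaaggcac

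Each library held between 20793619 and 25824261 small RNA reads, of which 35.8% to 41.0%, between 7789990 and 10538022 reads, were assigned to mature miRNAs. The level of a miRNA is given as the number of reads per 1000000 mature miRNA reads (CPM), scaled by the trimmed mean of M values (TMM) over the 8 libraries. The study's own group means were found to leave out pMSCs library 7: 58 of 58 pMSCs means among the miRNAs it lists matched the deposited values without that library (relative tolerance 2e-05), against 2 of 58 with all 4. The main comparison therefore used 7 libraries, and the result over all 8 is given beside it. Differences were tested with edgeR's quasi-likelihood F test, two-sided, over the mature miRNAs that averaged 1 read or more in either tissue, and a difference was called at a Benjamini-Hochberg adjusted p under 0.05. Log2 fold changes compare pMSCs with iwatMSCs, so that a negative value means a lower level in pMSCs. The labels do not tie a library to an animal or pool, so the p-values measure the spread between these libraries, which may be technical.

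miR-34a-5p was lower in pMSCs than in iwatMSCs, and it was the only one of the 6 members whose difference passed the test. Together the members took 0.990%, 1.001%, 1.27% and 1.17% of the mature reads in pMSCs libraries 5 to 8 and 1.95%, 1.56%, 1.65% and 1.98% in iwatMSCs libraries 13 to 16. The tissues did not overlap in this share, and the lowest iwatMSCs library lay above the highest pMSCs library. The order of the 6 members by CPM was the same in 8 of 8 libraries, with miR-34a-5p first, then miR-34b-3p, miR-34c-3p, miR-34c-5p, miR-34b-5p and miR-34a-3p. miR-34a-5p ranked 21 to 30 among the 1624 mature names, miR-34b-3p 36 to 41, miR-34c-3p 46 to 59, miR-34c-5p 96 to 124, miR-34b-5p 159 to 203 and miR-34a-3p 595 to 837.

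**Figure D1:**
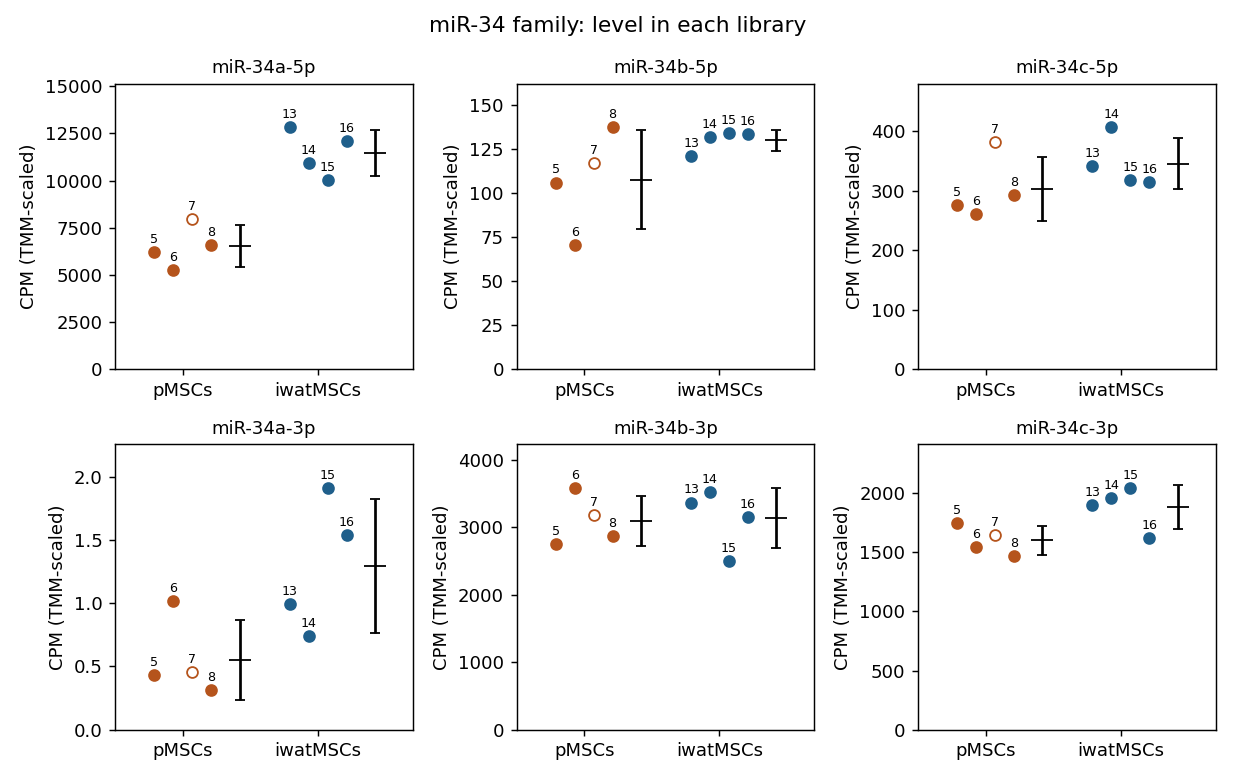
Level of each miR-34 family member in each library, in CPM scaled by TMM (vertical axis, from 0, a scale of its own in each panel). Points are libraries with their numbers, the open point is pMSCs library 7, and the bar beside each tissue is the mean with its SD over its 4 libraries. The 4 iwatMSCs libraries sit above the 4 pMSCs libraries in the panel of miR-34a-5p, and the tissues overlap in the other 5 panels.

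miR-34a-5p is the guide strand of Mir34a and the member most often studied as an effector of p53. Its level was 6230, 5269, 7951 and 6582 CPM in pMSCs libraries 5, 6, 7 and 8. It was 12835, 10912, 10053 and 12084 CPM in iwatMSCs libraries 13, 14, 15 and 16. All iwatMSCs libraries were above all pMSCs libraries, and library 7, the highest of pMSCs, remained below library 15, the lowest of iwatMSCs. The reads behind these levels numbered from 43263 in library 5 to 116213 in library 13. The means were 6508 ± 1111 CPM in pMSCs (SD, n = 4) and 11471 ± 1233 CPM in iwatMSCs (SD, n = 4).

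Over 7 libraries miR-34a-5p was 1.96-fold lower in pMSCs, a log2 fold change of −0.97 (SE 0.19, edgeR adjusted p = 0.0225). Over all 8 libraries it was 1.76-fold lower, a log2 fold change of −0.82 (SE 0.16, edgeR adjusted p = 0.0142). It was thus 1 of 6 members called, and 2.73% of the 1244 miRNAs tested over 7 libraries and 2.98% of the 1241 tested over 8 were called lower in pMSCs, and 5.39% and 6.45% in either direction. Without overlap and lower in pMSCs were 8.68% of the miRNAs over 7 libraries and 6.77% over 8, against 1 of 6 members in both. The study lists miR-34a-5p among the miRNAs it found to differ in these libraries, so the test is not independent evidence of the direction. The call was lost when pMSCs library 5 (edgeR adjusted p = 0.0817), pMSCs library 6 (0.102), iwatMSCs library 13 (0.0601) or iwatMSCs library 16 (0.0509) was left out, with log2 fold changes between −0.997 and −0.870 over all 7 such fits. In a sample of many cells, a lower level in each cell cannot be told apart from fewer cells that express the miRNA.

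**Figure D2:**
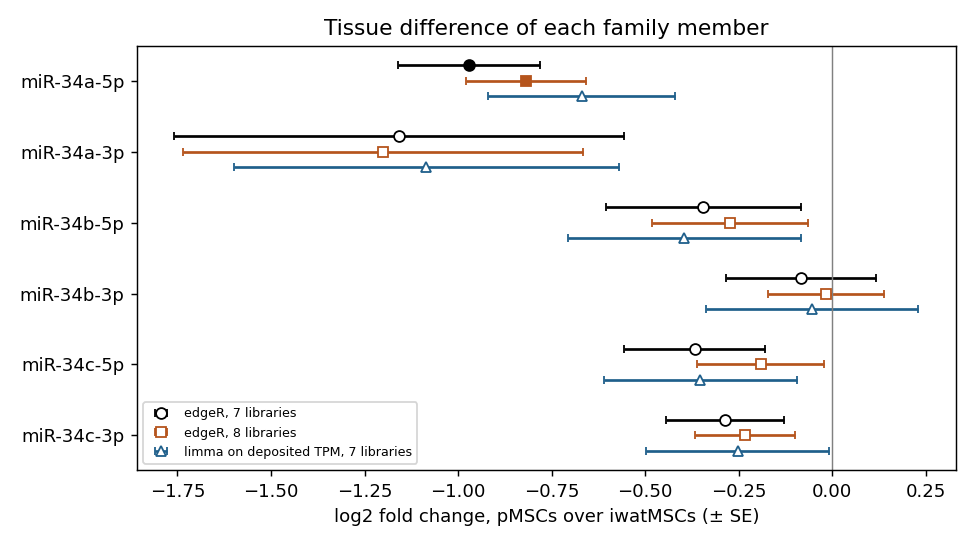
Log2 fold change of each member, pMSCs over iwatMSCs, with its standard error (horizontal axis; the vertical line marks no difference). Circles are the edgeR fit over 7 libraries, squares the edgeR fit over 8 libraries and triangles limma on log2(deposited TPM + 1) over 7 libraries, and filled symbols have an adjusted p under 0.05. The filled symbols are miR-34a-5p in both edgeR fits, at −0.97 and −0.82, and its triangle at −0.67 is open.

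miR-34a-3p, the strand opposite to miR-34a-5p in the hairpin, was nearly absent. It had 3, 10, 4 and 3 reads in pMSCs libraries 5 to 8 and 9, 6, 18 and 14 reads in iwatMSCs libraries 13 to 16. Its highest pMSCs library, library 6, lay above iwatMSCs libraries 13 and 14 by reads and by CPM, so that the tissues overlapped. The log2 fold change of −1.16 (SE 0.60, edgeR adjusted p = 0.378) rested on these few reads. The 5p strand made up at least 99.98% of the Mir34a strand reads in each of the 8 libraries.

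miR-34b-3p was the second most abundant member. Its level was 2751, 3582, 3181 and 2873 CPM in pMSCs libraries 5, 6, 7 and 8 and 3365, 3516, 2504 and 3146 CPM in iwatMSCs libraries 13, 14, 15 and 16. The highest library belonged to pMSCs and the lowest to iwatMSCs, and the tissues overlapped over nearly their whole range. The means were 3097 ± 370.3 CPM in pMSCs and 3133 ± 446 CPM in iwatMSCs (SD, n = 4 each). The log2 fold change was −0.08 over 7 libraries (SE 0.20, edgeR adjusted p = 0.868), and without pMSCs library 8 it was 0.01.

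miR-34c-3p shares its seed with miR-34b-3p and comes from the same transcript. It stood at 1746, 1547, 1643 and 1465 CPM in pMSCs libraries 5, 6, 7 and 8, and at 1902, 1958, 2043 and 1620 CPM in iwatMSCs libraries 13, 14, 15 and 16. iwatMSCs library 16 fell within the pMSCs values, and the other iwatMSCs libraries were above all of them. The log2 fold change was −0.29 (SE 0.16, edgeR adjusted p = 0.402).

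miR-34c-5p and miR-34b-5p, the 5p strands of the same pair of genes, were lower than their 3p partners in 8 of 8 libraries. miR-34c-5p was at 275, 261, 382 and 292 CPM in pMSCs libraries 5, 6, 7 and 8 and at 342, 407, 319 and 315 CPM in iwatMSCs libraries 13, 14, 15 and 16. On this scale pMSCs library 7 lay within the iwatMSCs values and the other 3 pMSCs libraries lay below all 4 iwatMSCs libraries. When the 7 libraries other than library 7 were scaled among themselves, the tissues still overlapped, with pMSCs library 8 at 303 CPM and iwatMSCs library 15 at 300.2 CPM. The log2 fold change was −0.37 without library 7 (SE 0.19, edgeR adjusted p = 0.375) and −0.19 with it (SE 0.17, edgeR adjusted p = 0.572).

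miR-34b-5p was at 106, 70.3, 117 and 137 CPM in pMSCs libraries 5, 6, 7 and 8. It was at 121, 132, 134 and 133 CPM in iwatMSCs libraries 13, 14, 15 and 16. pMSCs varied more than iwatMSCs, with a SD of 28.2 CPM against 5.96 CPM, and pMSCs library 8 was the highest of all 8. The log2 fold change was −0.34 (SE 0.26, edgeR adjusted p = 0.526).

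All 6 members had a negative log2 fold change over 7 libraries and over 8, as had 53.9% and 53.3% of all miRNAs tested. The median over the members was −0.36 over 7 libraries and −0.25 over 8, beside −0.08 and −0.07 over all miRNAs tested. A member that missed the threshold is not thereby shown to be equal in the tissues. The 2 strands of a hairpin and the members of the Mir34b and Mir34c transcript share their source, so the 6 values are not 6 separate observations.

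miR-34a-5p also took a larger share of the family's own reads in iwatMSCs. It made up 56.1%, 49.1%, 59.9% and 58.0% of the family's reads in pMSCs libraries 5 to 8 and 69.1%, 64.5%, 66.8% and 69.8% in iwatMSCs libraries 13 to 16. These shares did not overlap. The 4 strands of Mir34b and Mir34c together made up 40.1% to 50.9% in pMSCs and 30.1% to 35.5% in iwatMSCs, of which miR-34b-3p alone held 24.0% to 33.4% and 16.6% to 20.8%. Shares of 1 total are bound to each other, and a larger share of miR-34b-3p in pMSCs stood beside CPM of this miRNA that overlapped between the tissues.

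**Figure D3:**
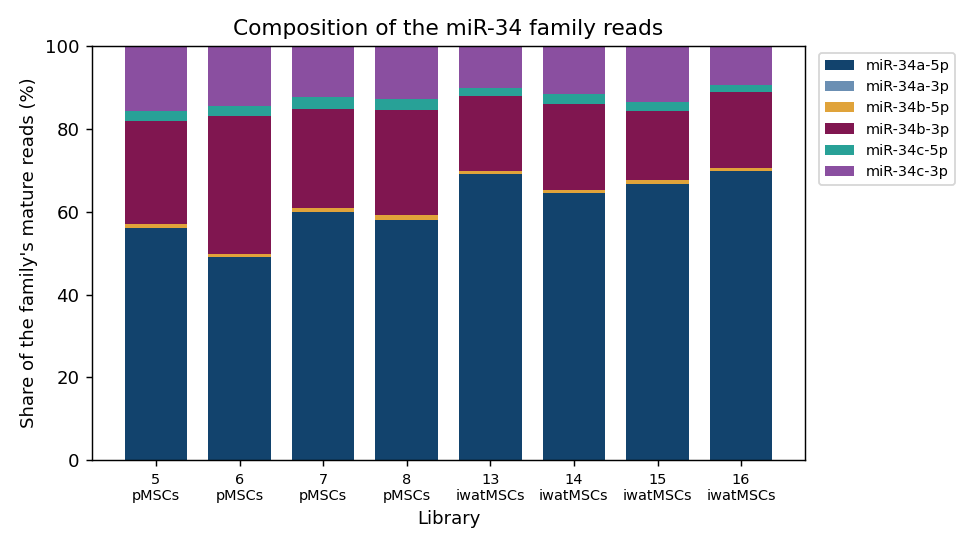
Share of the family's mature reads held by each of the 6 members (vertical axis, percent, from 0) in each of the 8 libraries. The lowest block, miR-34a-5p, reaches 49.1% to 59.9% in the 4 pMSCs libraries and 64.5% to 69.8% in the 4 iwatMSCs libraries, and the block of miR-34a-3p is too thin to be seen.

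Ratios between members within a library do not depend on how the libraries are scaled. Across 6 such ratios, compared by an exact permutation test (two-sided) on log2 ratios, 1 did not overlap between the tissues, that of miR-34a-5p over miR-34c-5p. Its mean log2 ratio was 4.44 ± 0.09 in pMSCs (SD, n = 3) and 5.05 ± 0.24 in iwatMSCs (SD, n = 4), a difference of −0.61 with an exact permutation p of 0.0571, the smallest that 3 against 4 libraries allow, and 0.343 after adjustment over the 6 ratios. With 4 against 4 libraries the difference was −0.63, with an exact permutation p of 0.0286, again the smallest possible, and 0.171 after adjustment. The other 5 ratios, the 5p over the 3p strand of each gene and the 2 ratios of a Mir34b strand over its Mir34c counterpart, differed by between −0.34 and 0.22 over 7 libraries, with an adjusted exact permutation p of 0.914 for each.

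The strand that prevails differed between the genes, as a description of these libraries. Mir34a was read almost wholly as its 5p strand. Mir34b was read mainly as its 3p strand, with 18.7 to 51.0 reads of miR-34b-3p for each read of miR-34b-5p. pMSCs library 6 had the highest of these ratios, 51.0, and the other 3 pMSCs libraries and the iwatMSCs libraries were all at or below 27.7. Mir34c was also read mainly as its 3p strand, and miR-34c-5p made up 13.5% to 18.9% of its strand reads. As a result, miR-34a-5p held 93.9% to 96.5% of the reads of the 3 5p strands in each library.

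miR-449a-5p, which shares the seed of miR-34a-5p and is abundant in multiciliated cells, was at 225, 175, 225 and 181 CPM in pMSCs libraries 5, 6, 7 and 8 and at 182, 191, 129 and 145 CPM in iwatMSCs libraries 13, 14, 15 and 16. The tissues overlapped, and the log2 fold change was 0.21 (SE 0.23, edgeR adjusted p = 0.673), opposite in sign to that of miR-34a-5p. Another relative with this seed, miR-449c-5p, had 2 reads in all, both in pMSCs library 6.

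Besides its mature rows the table holds rows of the type hairpin under the same strand names, and these held 12.1% to 36.9% of the joint mature and hairpin reads of the 5 more abundant members and 78.3% to 92.9% of those of the sparse miR-34a-3p. For miR-34a-5p the hairpin rows showed the same separation as the mature rows. The mean difference in log2(CPM + 1) was −1.07 over 7 libraries (exact permutation p = 0.0571, adjusted over the 6 rows 0.114). Over 8 libraries it was −0.93 (exact permutation p = 0.0286, adjusted 0.0571). Before adjustment, each p is the smallest that its number of libraries allows. The hairpin rows of miR-34c-5p and miR-34c-3p also separated the tissues, with differences of −1.004 and −0.54 over 7 libraries and the same exact permutation p of 0.0571 each (adjusted 0.114), although their mature rows overlapped. Of the hairpin rows that averaged 1 read or more in either tissue, 9.89% of 1092 were lower in pMSCs without overlap over 7 libraries and 7.0% of 1072 over 8, against 3 of 6 for the family in both. Those of miR-34b-5p, miR-34b-3p and miR-34a-3p overlapped, with differences of −0.03, −0.25 and −0.59.

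The share of the joint reads that fell on the hairpin row was lower in pMSCs without overlap for miR-34b-3p (21.5% to 24.5% against 24.9% to 25.7%), miR-34c-5p (13.2% to 23.1% against 23.8% to 30.1%) and miR-34c-3p (25.0% to 27.6% against 28.7% to 31.9%). All 3 are strands of the Mir34b and Mir34c transcript. Its remaining strand, miR-34b-5p, overlapped, at 12.1% to 36.9% in pMSCs and 13.0% to 16.8% in iwatMSCs. For miR-34a-5p this share was 21.96% to 24.2% in pMSCs and 23.5% to 26.1% in iwatMSCs and overlapped. Of the 138 miRNAs with at least 1000 mature reads in every library, 7.25% were lower in pMSCs without overlap and 4.35% higher, and 4 members belonged to these 138. How a read was assigned to a hairpin row is not given in the sources used here.

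The table also gives each value as TPM, and in that column the difference of miR-34a-5p was smaller. The deposited TPM were whole numbers that never exceeded the read count and fell behind it as the count rose. The libraries carried unique molecular identifiers, and whether this column counts molecules rather than reads is not given in the sources used here. If it does, the comparison below is one of molecules and those above are of reads that include copies from amplification. For miR-34a-5p they stood at 71.9% to 77.3% of the reads in the 3 pMSCs libraries other than library 7 and at 57.1% to 63.8% in the 4 iwatMSCs libraries. For the less abundant members the TPM came closer to the reads, at 82.5% to 88.3% for miR-34b-3p, 89.2% to 92.7% for miR-34c-3p, 94.3% to 97.4% for miR-34c-5p, 96.4% to 98.2% for miR-34b-5p and 100% for miR-34a-3p. The mean TPM of miR-34a-5p was thus 39349 ± 6108 in pMSCs (SD, n = 3) and 62245 ± 5070 in iwatMSCs (SD, n = 4), 1.58-fold against 1.96-fold by scaled reads. On log2(TPM + 1) limma gave a log2 fold change of −0.67 (SE 0.25, limma adjusted p = 0.255), which did not pass the threshold. Neither the mean TPM nor this fit was scaled between libraries. The totals of mature TPM ran from 3115598 in library 5 to 3998581 in library 6, and such differences enter both.

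**Figure D4:**
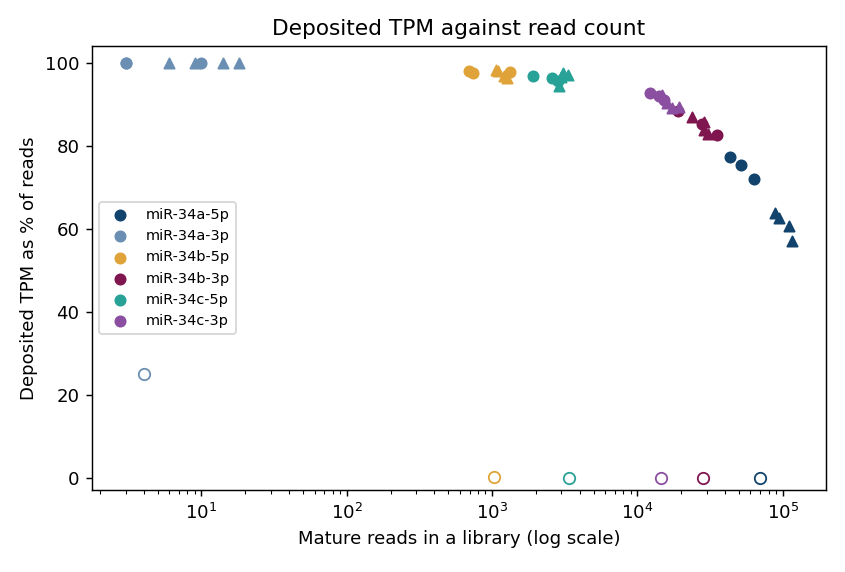
Deposited TPM as a percentage of the read count (vertical axis, from 0 to 100) against the number of mature reads of a member in a library (horizontal axis, log scale), with a colour for each member. Filled circles are pMSCs libraries 5, 6 and 8, triangles are iwatMSCs libraries, and open circles are pMSCs library 7. The percentage falls from 100% for miR-34a-3p to 57.1% for miR-34a-5p in the iwatMSCs library with the most reads, and the open circles lie near 0 except that of miR-34a-3p, which has 4 reads.

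In pMSCs library 7 the deposited TPM was 1 for each of the 6 members, although miR-34a-5p had 70355 reads there, miR-34b-3p 28148, miR-34c-3p 14542, miR-34c-5p 3381, miR-34b-5p 1035 and miR-34a-3p 4. The same held for 599 of the 634 mature names with at least 10 reads in that library, whose TPM was at most 1, and for 0 such names in the other 7 libraries. By CPM, library 7 was the highest of the 4 pMSCs libraries in miR-34a-5p and miR-34c-5p and lay between the others in the remaining 4 members.

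A list held 16 other miRNAs of genes with a product that p53 is known, mostly from human cells, to induce directly or through processing. The strand listed need not be the induced one. Of the 16, 4 were higher and 1 was lower in pMSCs over 7 libraries. The median log2 fold change was 0.20 beside −0.08 over all miRNAs tested. Over 7 libraries 2.65% of all miRNAs tested were called higher and 2.73% lower, and over 8 libraries, where the list again had 4 higher and 1 lower, 3.46% and 2.98%. Some miRNAs of the list share a transcript or cluster, as miR-143-3p and miR-145a-5p do, so its 16 values are not 16 separate observations. Of the 4 that were higher, miR-143-3p and miR-145a-5p are abundant in smooth muscle and stromal cells, and miR-200c-3p and miR-141-3p are restricted largely to epithelial cells. miR-143-3p ranged from 44734 to 61443 CPM in pMSCs and from 13467 to 17515 CPM in iwatMSCs (log2 fold change 1.65, SE 0.17, edgeR adjusted p = 0.0010). miR-145a-5p, from the same transcript, rose by a log2 fold change of 1.54 (SE 0.25, edgeR adjusted p = 0.0078), a call that was lost without iwatMSCs library 16 (0.0509). miR-200c-3p had a log2 fold change of 4.35 (SE 0.42, edgeR adjusted p = 0.0008) and miR-141-3p one of 6.53 (SE 0.95, edgeR adjusted p = 0.0049). The value of miR-141-3p rests on iwatMSCs levels near 0, with 0 CPM in libraries 13, 15 and 16. In limma on log2(deposited TPM + 1), 2 of the 5 called miRNAs of the list passed, miR-200c-3p and miR-141-3p.

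The miRNA of this list that edgeR called lower in pMSCs was miR-15a-5p, a repressor of Bcl2 and of cyclins. It stood at 390.0, 342, 466 and 420.0 CPM in pMSCs libraries 5, 6, 7 and 8 and at 802, 960, 886 and 746 CPM in iwatMSCs libraries 13, 14, 15 and 16. The tissues did not overlap, and the log2 fold change was −1.18 (SE 0.19, edgeR adjusted p = 0.0069), with an adjusted p of at most 0.0426 when any 1 library was left out. Its cluster partner miR-16-5p had a log2 fold change of −0.72 (SE 0.18, edgeR adjusted p = 0.0636) and did not pass, although its levels did not overlap over 7 libraries and DESeq2 called it (log2 fold change −0.69, DESeq2 adjusted p = 0.0125), so that DESeq2 called 6 of the 16. The other 10 miRNAs of the list, miR-192-5p, miR-194-5p, miR-215-5p, miR-107-3p, miR-205-5p, miR-149-5p, miR-29a-3p, miR-29b-3p, miR-29c-3p and miR-22-3p, did not pass either, with log2 fold changes between −0.65 and 0.32.

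Of 4 miRNAs known from human or mouse cells to repress p53 itself, miR-125b-5p, miR-25-3p, miR-30d-5p and miR-33-5p, none passed the edgeR test over 7 libraries or over 8. Of all miRNAs tested, 5.39% over 7 libraries and 6.45% over 8 were called in either direction, and 0 of 4 is near that share. Of the 4, 0 had an unadjusted edgeR p under 0.05 over 7 or 8 libraries, and 0 passed in DESeq2 (3 with an adjusted p) or limma. Their median log2 fold change over 7 libraries was −0.34, beside −0.08 over all miRNAs tested. miR-125b-5p was at 64204 CPM in iwatMSCs library 15 and between 6256 and 12658 CPM in the other 7 libraries. Among iwatMSCs, library 15 had the lowest level of miR-34a-5p and of miR-34b-3p but the highest of miR-34c-3p, miR-34b-5p and miR-34a-3p. Its miR-34c-5p lay between that of libraries 16 and 13. A link to miR-125b-5p was not tested.

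The miRNAs whose level over the 8 libraries was most like that of miR-34a-5p, by Pearson's r of log2(CPM + 1) among 382 miRNAs with a mean of at least 10 CPM, were a predicted miRNA without a miRBase name (r = 0.97), miR-138-5p (0.95), miR-9-3p (0.95), miR-15a-5p (0.93) and miR-615-3p (0.93). miR-138-5p had the same log2 fold change of −0.97 as miR-34a-5p (SE 0.19, edgeR adjusted p = 0.0225), and miR-9-3p had −1.50, the predicted miRNA −1.92, and miR-615-3p, which lies in the HoxC cluster, −3.02. Leaving out 1 library ended the edgeR call of miR-138-5p in 5 of 7 fits, of miR-9-3p in 6 and of the predicted miRNA in 1. The likeness contains the difference between the tissues: within the 4 iwatMSCs libraries, miR-15a-5p had an r of −0.69 with miR-34a-5p and within the 4 pMSCs libraries one of 0.99, and miR-615-3p had 0.85 and 0.00. The other 3 had an r of at least 0.61 within iwatMSCs and of at least 0.68 within pMSCs. The r are descriptions over 8 libraries that share their scaling.

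For miR-34c-5p the most like were miR-214-5p (r = 0.83), miR-466i-5p (0.81), miR-190b-5p (0.80), miR-99b-3p (0.74) and miR-669b-5p (0.73), none of which passed the edgeR test between the tissues over 7 libraries or over 8. Among the members themselves, miR-34a-5p and miR-34c-5p had an r of 0.66, miR-34a-5p and miR-34b-3p one of 0.07, and miR-34b-3p and miR-34c-3p, of 1 transcript and 1 seed, one of −0.18 over the same 8 libraries. The strands of Mir34b had an r of −0.43 and those of Mir34c one of 0.50, while miR-34b-5p had one of 0.55 with miR-34c-5p and one of 0.67 with miR-34a-5p, the highest of the 15 pairs.

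miRNAs that mark other cells of the pancreas moved with the tissue. All 5 epithelial miRNAs of the miR-200 family were higher in pMSCs, with a summed level of 235 to 584 CPM against 12.3 to 20.05 CPM in iwatMSCs, as were the acinar miR-216a-5p, miR-216b-5p and miR-217-5p (5.88 to 30.1 against 0.330 to 0.552 CPM) and the islet miR-375-3p (254 to 807 against 3.53 to 22.5 CPM). None of these 9 was at 0 in all libraries, but some were nearly absent from iwatMSCs. There miR-141-3p was at 0 CPM in libraries 13, 15 and 16, and miR-217-5p averaged 0.0265 CPM. Both passed the filter on mean reads through pMSCs, and their fold changes rest on a group near 0. The calls of miR-217-5p and miR-216b-5p were lost in 6 and 4 of the 7 fits that left out 1 library. Of the markers of endothelial (2 tested), haematopoietic (3 tested) and muscle cells (3 tested), 0 were called with edgeR over 7 or over 8 libraries. Of all miRNAs tested, 5.39% and 6.45% were called, so 0 of so few markers is near that share. In each of these edgeR fits 3 markers had an unadjusted p under 0.05. DESeq2 called 1 of the 7 to which it gave an adjusted p, the haematopoietic miR-223-3p, at a mean of 0.367 CPM in pMSCs and 1.91 CPM in iwatMSCs. With limma on the deposited TPM 0 were called. Stromal miR-143-3p, miR-145a-5p, miR-199a-3p, miR-199a-5p and miR-214-3p were present in both tissues, at a summed 58550 to 72344 CPM in pMSCs and 36707 to 46926 CPM in iwatMSCs, although miR-199a-3p alone ranged from 11.3 to 10521 CPM. The higher sum in pMSCs rested on miR-143-3p: miR-199a-3p (log2 fold change −6.56), miR-214-3p (−1.74) and miR-199a-5p (−0.59) had lower values in pMSCs without passing the edgeR test, and the median of the 5 was −0.59. DESeq2 called miR-199a-3p lower (log2 fold change −6.46, DESeq2 adjusted p = 0.0017). The part of other cell types in the difference of miR-34a-5p was not tested.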

How the data were processed

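Small RNA was enriched, ligated, amplified with unique molecular identifiers and sequenced on BGISEQ by BGI, which also identified and classified the small RNAs; Bowtie2 is named among the submitters' tools, and the genome build, the miRBase release and the assignment to hairpin rows are not given in the sources used here. The deposited table holds raw read counts per small RNA, as the authors gave them. It also holds a column the authors name TPM, treated here as a score because its whole numbers (0.001 in place of 0) never exceeded the counts and had no common total. Main tests used edgeR 4.0.16 (quasi-likelihood, TMM, with no term besides tissue) in R 4.3.3 on counts of mature miRNAs, with a mean count of at least 1 in 1 tissue and 7 libraries. SE was approximated by dividing the size of the log2 fold change by the root of F. Ratios within a library (0.5 reads added) and hairpin rows (CPM + 1) were compared with exact permutation tests (scipy 1.17.1). Alternatives were all 8 libraries, DESeq2 1.42.0, its size factors, limma 3.58.1 on log2(TPM + 1), other filters and scaling, summed strands and each library left out; the sum of mature and hairpin reads was chosen after seeing the data. The edgeR fit was tested on simulated data. Among miRNAs of at least 10 CPM it called 4 of 29 with a simulated 2-fold change, 21 of 31 with a 4-fold change and 1 of 323 with none. A 2-fold difference would thus mostly be missed. The text names the 6 members, their seed relatives, up to 4 miRNAs of lowest p and 2 most abundant of each list, and the 5 most like miR-34a-5p and miR-34c-5p; the other p53-linked miRNAs were named to account for their lists. The members and lists were chosen with earlier results of these data known.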

Additional observations from a re-analysis of the deposited data

Results flagged for a closer look

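Of 40 groups of 4 libraries examined for a value far from the others, 1 held such a value, and chance alone gives about 1 in 20. The hairpin row of miR-34b-5p was at 62.1 CPM in pMSCs library 5, against 10.9 to 19.0 CPM in the other 3 pMSCs libraries. In that library the hairpin row held 36.9% of the joint hairpin and mature reads of miR-34b-5p, while the mature row of miR-34b-5p, at 106 CPM, lay between those of libraries 6 and 7. The other 5 hairpin rows of the family had no such value.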

How the results depend on the processing

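miR-34a-5p was lower in pMSCs in all 16 alternatives and past the threshold in 11, with log2 fold changes from −1.02 to −0.67 and adjusted p from 6.88e-08 (DESeq2) to 0.255 (limma on log2 of the deposited TPM + 1, log2 fold change −0.67). With 1 library left out it ranged from −0.997 to −0.870, and the adjusted p of edgeR from 0.0136 to 0.102. Over all mature miRNAs, edgeR called 33 higher and 34 lower in pMSCs over 7 libraries and DESeq2 57 and 56, while 299 of its adjusted p were not given. With 1 library left out edgeR called 24 to 34 higher and 18 to 31 lower. The other 5 members passed the threshold in none of their 16 alternatives each. The log2 fold change of miR-34b-3p changed sign without pMSCs library 8 (0.013, range −0.19 to 0.013). Ratios that changed sign with 1 library left out were miR-34a-5p over miR-34a-3p (−0.20 to 0.74), miR-34b-5p over miR-34b-3p (−0.61 to 0.038), miR-34c-5p over miR-34c-3p (−0.17 to 0.00077, and 0.031 over all 8 libraries) and miR-34b-5p over miR-34c-5p (−0.23 to 0.17), as did the hairpin row of miR-34b-5p (−0.70 to 0.52). None of these was past the threshold in any setting, and the causes were not tested. For the ratios and hairpin rows, 3 against 4 libraries or fewer could not pass it. Over all 8 libraries a pass needed more of the 6 to separate the tissues fully than the 1 ratio and 3 hairpin rows that did. Their adjusted exact permutation p of 0.171 and 0.0571 were thus the smallest possible for that many. No paired analysis was possible because the labels number the libraries 5 to 8 and 13 to 16, with no number in common, and do not say which libraries of the 2 tissues came from the same mice. The few reads of miR-34a-3p, 3 to 18 in a library, limit what can be said of it. Intervals from reads cover counting error only.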
